A study of Mus musculus with 131 samples.

Results

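Liver cells of newborn mice that were grown in culture were examined by reduced representation bisulfite sequencing (RRBS), a method that measures CpG methylation in genome fragments released by a restriction enzyme. The results concern 318143 tiles of 100 bp, of 913286 listed, chosen because they had a value in both cultures and in hepatocytes of both uninjected WT mice of 3 weeks. Of these, 317407 also had a value in whole genome bisulfite sequencing (WGBS) of newborn hepatocytes. A tile was called gained in culture where the mean of the cultures was at least 35 percentage points above the mean of the 3 week mice and also above the newborn value, and lost where it was at least 35 points below both.

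The mice were C57Bl. The label of the cultures gives WT hepatocytes in vitro with an age of 1 week, and 8 such samples are listed. A column exists for 2 cultures. One names 30 days in vitro and is called the 30 day culture here, and the other is called the second culture. According to the study's methods the liver cells were plated without sorting, in medium with serum and growth supplement, and were kept for weeks, whereas hepatocytes taken from mice were sorted as CD45 negative cells. The time in culture, the medium, the absence of a sort and the age therefore cannot be told apart in a comparison of culture with mouse. The other groups were hepatocytes of mice at 15 weeks that had received AAV8 with Cre under the Tbg promoter, which is active in hepatocytes, at 1 day or at 3 weeks. They comprised 3 injected controls (WT CRE) and 2 Tet2F/Tet3F mice (DKO, without Tet2 and Tet3 in hepatocytes) for each injection time. WGBS of adult WT hepatocytes at 15 weeks, WGBS of WT hepatocytes labelled newborn with an age of 1 week, RRBS of fat at 25 weeks and RRBS of neutrophils at 36 weeks were 1 sample each. The columns of the 3 week mice, the injected controls and the DKO mice carry only an animal number, which the expression table gives together with the condition. More samples of these groups are listed than were used.

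DNA methylation at CpG sites is copied at each cell division by Dnmt1 and Uhrf1, so a cell type keeps much of its pattern as it divides. New patterns are set by the de novo methyltransferases, and methyl groups are removed after oxidation by Tet enzymes or by division without copying. In hepatocytes low methylation marks active promoters and the enhancers of genes for plasma proteins, lipid transport and detoxification, many of which mature after birth.

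Most tiles had a similar level in culture and in the mouse. The mean over all tiles was 55.2% in the 30 day and 55.9% in the second culture, 55.6% and 55.5% in the 3 week mice, and 54.9% in newborn WGBS over 317407 tiles. Culture and 3 week mice differed by 0.035 points, with an exact permutation p of 1.0 (two-sided, 2 against 2, where the smallest p is 0.33). Tiles under 20% in newborn, of which there were 106902, had 2.39% ± 0.235 (SD, n = 2) in culture and 2.22% ± 0.0533 (n = 2) at 3 weeks. The 146491 tiles over 80% in newborn had 89.9% ± 0.709 (n = 2) and 90.1% ± 0.182 (n = 2). Across tiles the cultures correlated with each other with r = 0.957 and with the 3 week mice with r from 0.946 to 0.957, while the 3 week mice had r = 0.963 with each other. These correlations run across tiles of shared genome sequence, and tiles are not replicates. Of all tiles, 81.2% lay within 10 points of the 3 week mean.

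There were 349 gained and 811 lost tiles, or 0.11% and 0.256% of those with a newborn value. At gained tiles the 30 day culture had a mean of 67.2% and the second culture 65.7%, while the 3 week mice had 15.6% and 16.2% and newborn 22.2%. At lost tiles the cultures had 27.3% and 26.1%, the 3 week mice 80.1% and 80.8%, and newborn 78.4%. These levels are what the rule chose and carry no test. In bulk samples a change within the cells and a change in the mixture of cells cannot be told apart. Both cultures lay above both 3 week mice at 342 of 349 gained tiles and below them at 774 of 811 lost tiles, where 12.7% and 13.3% of all tiles did so. The rule had used the same contrast. Adult WGBS had 14.3% at gained and 74.2% at lost tiles, and the 6 injected controls had 15.5% ± 0.745 (SD, n = 6) and 70.2% ± 0.833.

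**Figure D1:**
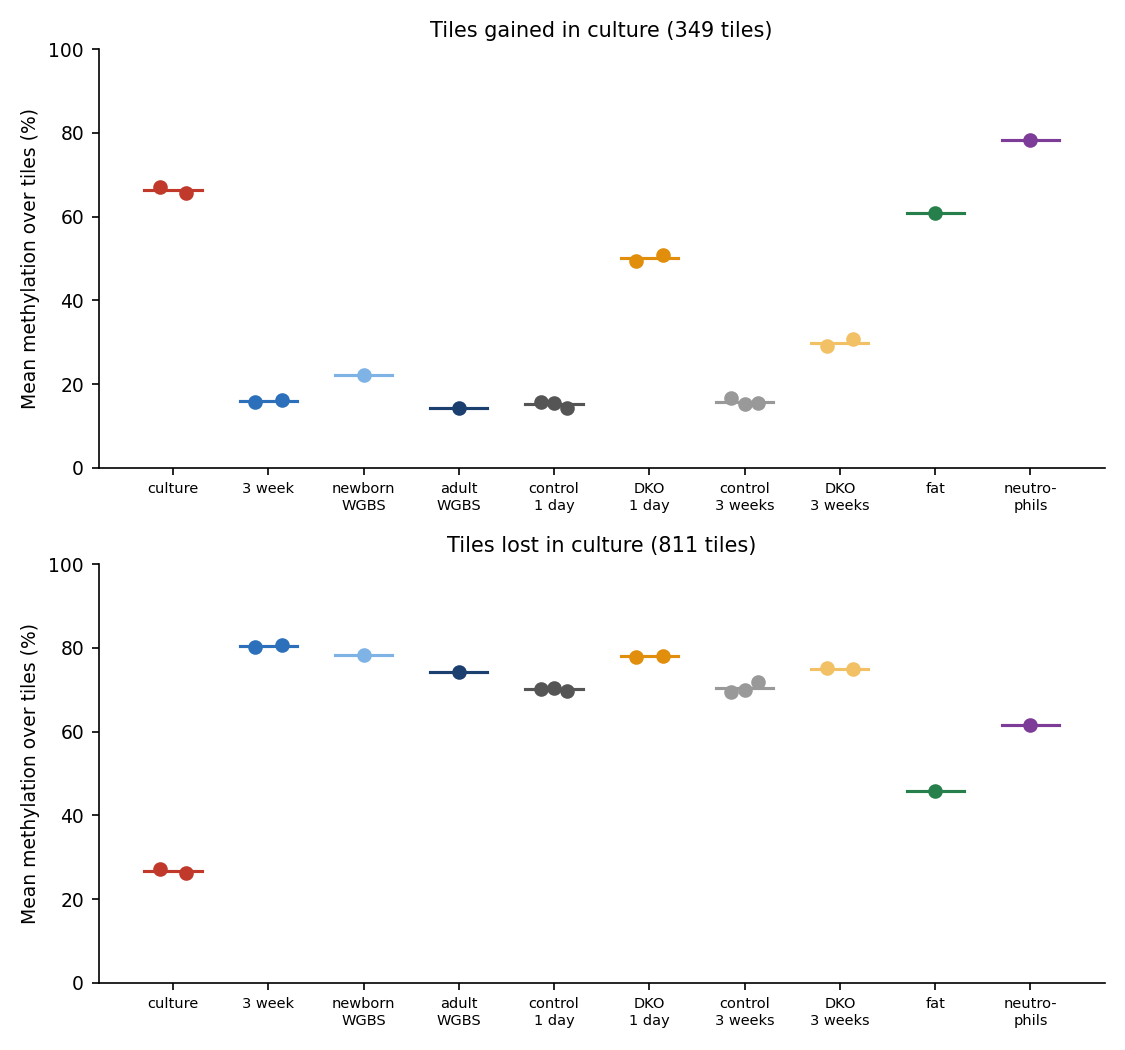
Mean methylation in percent (vertical axis, 0 to 100) over the gained tiles (upper panel) and the lost tiles (lower panel), with 1 point per sample and a line at the mean of the group. The cultures lie at 67.2% and 65.7% in the upper panel and at 27.3% and 26.1% in the lower one, and the DKO mice injected at 1 day lie at 49.4% and 50.8% in the upper panel, between the controls and the cultures.

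Fitted tile by tile over the 4 samples, limma called 0 tiles higher and 0 lower (Benjamini-Hochberg adjusted p under 0.05 and at least 35 points; 0% of 318143 tested), and the smallest adjusted p was 0.0911. At an unadjusted p under 0.05, 1216 tiles were higher and 989 lower by that amount. With the 6 injected controls in the fit, which adds samples to the estimate of the spread, limma called 645 tiles higher, 0.214% of 301230 tested, and 264 lower, 0.0876%. At 111 gained and 338 lost tiles each culture lay at least 35 points from each 3 week mouse and from newborn. At the limit, the gained tile nearest to it had 37.4% in culture, 0% at 3 weeks and 2.38% in newborn, and the tile just outside had 93.9%, 59.0% and 51.9%. The lost tile nearest to the limit had 30.9% in culture, 65.9% at 3 weeks and 70.8% in newborn, and the one just outside had 55.4%, 90.4% and 96.0%.

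How far the cultures share these changes was read in samples that the choice did not use. Tiles chosen as gained in the 30 day culture against the first 3 week mouse and newborn, 771 in all, were read in the second culture against the second mouse. They had 44.3% in that culture and 24.7% in that mouse, and 28.4% of them were past 35 points, compared with 1.94% of all tiles. The 1466 tiles chosen as lost in the same way had 52.7% in the second culture and 72.9% in the second mouse, with 31.7% past the limit against 1.71% of all tiles. In the opposite direction, 878 gained and 2302 lost tiles of the second culture against the first mouse were read in the 30 day culture against the second mouse. Of these, 23.1% and 19.9% were past the limit, with 1.59% and 1.36% of all tiles. Many changes were seen in 1 culture: 2810 tiles were 35 points or more above the 3 week mean in the 30 day culture and 3538 in the second culture, with 1198 in both. In the downward direction the counts were 2911, 4173 and 921. Movement in opposite directions by that amount occurred at 6 and 11 tiles. Both differences use the same 3 week mean, so a deviation in that mean moves both cultures the same way. These counts did not use the newborn value and can include changes of the mouse with age.

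**Figure D2:**
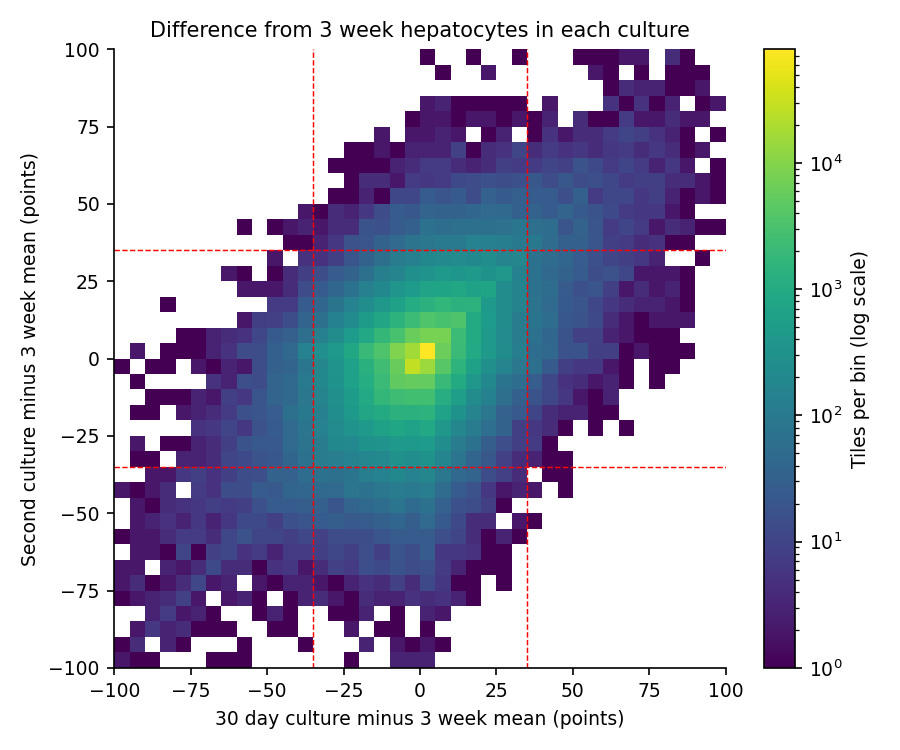
Difference from the mean of the 3 week mice in percentage points in the 30 day culture (horizontal axis) and in the second culture (vertical axis), as the number of tiles in each bin of 5 by 5 points on a log colour scale, with dashed lines at 35 points. The upper right corner holds 1198 tiles and the lower left 921, whereas the 2 corners of opposite sign hold 6 and 11. Both axes subtract the same 3 week mean, which by itself favours the same sign, and the newborn value is not used.

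The sequences of single tiles show where such a change sits. The tiles below are, among the 10 genes with the most gained tiles, the 3 with the largest difference from the 3 week mice, 1 to a gene. They are written from the plus strand of build mm9 with the CpG sites in capitals. The tile of Cerk, which encodes ceramide kinase, lies at chr15:86007901-86008000 in an intron. That of Wdr8, a gene for a WD repeat protein, lies at chr4:153528101-153528200 in an annotated exon. The third lies at chr8:122933301-122933400 in an intron of Gm20388, a gene model that spans 4430 kb and covers many other genes, so that its tiles cannot be assigned to 1 gene.
Cerk: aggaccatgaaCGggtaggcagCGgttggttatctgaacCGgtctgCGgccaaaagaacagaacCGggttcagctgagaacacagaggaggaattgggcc
Wdr8: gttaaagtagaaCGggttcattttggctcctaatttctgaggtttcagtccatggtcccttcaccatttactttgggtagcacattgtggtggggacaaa
Gm20388: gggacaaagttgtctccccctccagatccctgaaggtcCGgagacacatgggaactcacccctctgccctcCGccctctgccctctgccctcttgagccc

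At the Cerk tile, which holds 5 CpG sites, the cultures had 80% and 70.7%, both 3 week mice 0% and newborn 34.8%. The Wdr8 tile with its 1 CpG had 80% and 94.7% in culture, 0% in both mice and 29.4% in newborn. The Gm20388 tile had 68.4% and 91.7%, 0% and 4.76%, and 35.6%. Newborn lay between the cultures and the mice at each of the 3 tiles, whose distance from the mice was fixed by the choice. Since WGBS was given per 200 bp, the newborn value of a tile also covers its neighbour.

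Many gained tiles carried histone marks of enhancers in adult hepatocytes. A peak of H3K4me1, a mark of enhancers, covered 66.8% of gained tiles, and a peak of H3K27ac, a mark of active elements, covered 53.6% (WT hepatocytes at 15 weeks, 1 library each). A tile can gain only where both references leave room for it, that is, where they are at most 65%. Of the 126577 tiles that could gain, 40.8% were in H3K4me1 and 47.1% in H3K27ac peaks. Those tiles are largely CpG rich, however, and 6.30% of gained tiles lay in CpG rich sequence (500 bp with at least 50% GC and an observed to expected CpG ratio of 0.6) where 61.6% of the tiles that could gain did. Among the 48625 tiles that could gain outside CpG rich sequence the shares were 43.7% for H3K4me1 and 31.3% for H3K27ac. A peak of 5-hydroxymethylcytosine (5hmC), the first product of Tet enzymes, measured in hepatocytes of mice 20 days old (1 library), covered 16.6% of gained tiles and 6.69% of those 48625. Promoters, from 1 kb before to 100 bp after a start, held 9.17% of gained tiles compared with 46.2% of all that could gain and 25.5% of those outside CpG rich sequence. Gene bodies held 66.2%.

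Lost tiles were mostly outside the regulatory elements of adult hepatocytes. H3K4me1 covered 18.2% of them and H3K27ac 12.0%, and 6 of 811 (0.74%) lay in an ATAC-Seq peak found in both WT libraries. These shares were still above those of the 198400 tiles that could lose, of which 6.49% were in H3K4me1, 3.68% in H3K27ac and 0.116% in ATAC-Seq peaks. A 5hmC peak covered 11.1% of lost tiles and 5.41% of those that could lose. Promoters held 7.64% of lost tiles and 4.67% of those that could lose, gene bodies 52.8% and 47.2%. The lost tiles were CpG poor, with a median of 2 CpG sites per tile. They lay a median of 16.0 kb from the nearest start, and tiles that could lose 26.8 kb. Within 1 kb of each other, the 349 gained tiles formed 325 regions and the 811 lost tiles 679, with 93.2% and 83.8% of regions made of 1 tile and no more than 4 tiles in any. Members occurred on every autosome, from 0.527 gained per 1000 tiles on chromosome 3 to 2.05 on chromosome 8, and from 1.94 lost on chromosome 16 to 3.39 on chromosome 13.

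**Figure D3:**
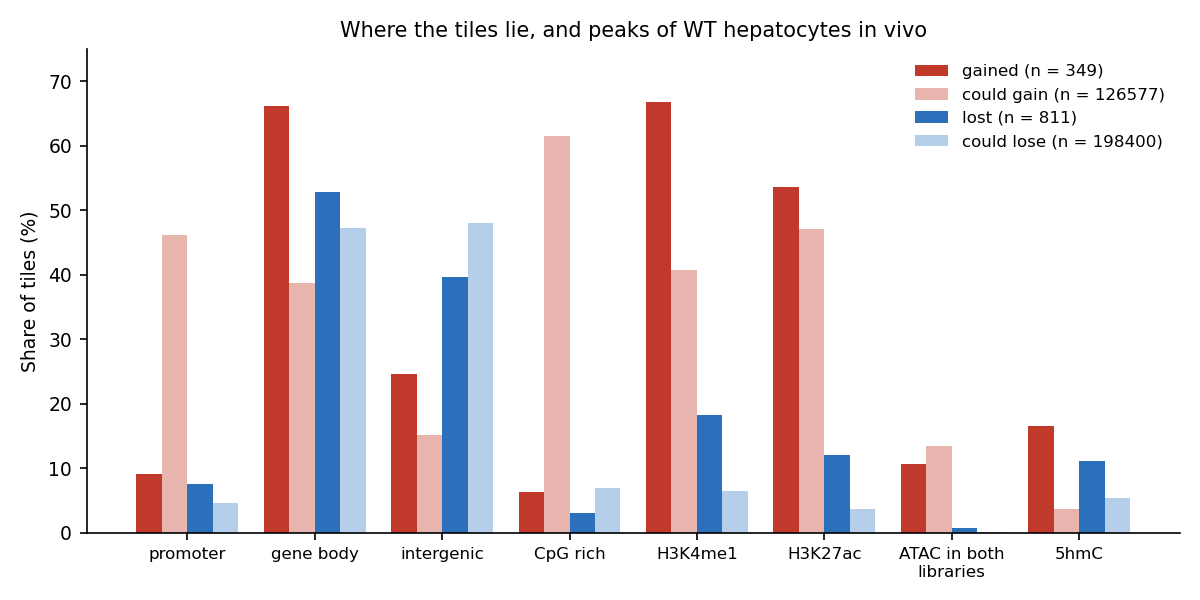
Share of tiles in percent (vertical axis) that lie in promoters, gene bodies, intergenic or CpG rich sequence and in peaks of WT hepatocytes, for gained and lost tiles beside the tiles that could gain or lose. H3K4me1 peaks hold 66.8% of gained tiles against 40.8% of tiles that could gain, and promoters hold 9.17% against 46.2%.

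The letters TGANTCA, a pattern that includes sites bound by AP-1, were found around 41.1% of lost tiles. AP-1 is a dimer of Fos and Jun proteins, which are induced by growth factors, serum and stress. The letters were sought on both strands in the 300 bp window centred on a tile, and N stands for any base. Matches were not counted apart by that base, so the shares are not shares of AP-1 sites alone. They occurred in 333 of 811 windows of lost tiles, in 6.30% of the 198400 windows of tiles that could lose, and in 6.02% of windows of gained tiles. Within the 100 bp tile itself they occurred in 21.7% of lost tiles and 1.99% of tiles that could lose. The share was 26.9% of 294 tiles that lost 35 to 45 points, 36.6% of 276 tiles that lost 45 to 60 points and 63.5% of 241 tiles that lost 60 points or more. By position it was 43.5% in promoters, 41.4% in gene bodies and 40.2% between genes, against 6.35%, 6.80% and 5.81% of tiles there that could lose. In H3K4me1 peaks of adult hepatocytes it was 43.2%, and outside them 40.6%. A match is a description of sequence and does not show that a factor was bound.

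Among losses found in 1 culture only, the letters were near 20.3% of the 819 tiles lost in the 30 day culture alone and 8.64% of the 1643 tiles lost in the second culture alone. Taken over all tiles lost by the rule in 1 culture, with or without a loss in the other, the share was 33.4% in the 30 day and 17.5% in the second culture. Among the tiles that could lose, the share was 10.9% where fat, and 10.3% where neutrophils, were 35 points or more below the injected controls, and 8.97% where adult was that much below newborn WGBS. Other letters were sought in the same windows. ACATTCC, bound by TEAD factors, was found near 8.26% of lost tiles and 3.60% of tiles that could lose. TGTGGTT, bound by RUNX factors, was found near 7.40% and 4.52%. TTGCNNAA, bound by C/EBP factors, was found near 12.2% and 13.6%. TGTTTAC, bound by FOXA factors, was found near 4.81% of lost tiles and 3.17% of tiles that could lose. CAAAGTCC, bound by HNF4, was found near 0.986% and 1.06%. At gained tiles CAAAGTCC, bound by HNF4, was found near 3.72%, and near 1.87% of tiles outside CpG rich sequence that could gain. TGTTTAC, bound by FOXA factors, was found near 5.73% and 4.06%. The C/EBP letters were found near 10.6% and 11.5% of the same sets, and the AP-1 letters near 6.02% and 7.02%.

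**Figure D4:**
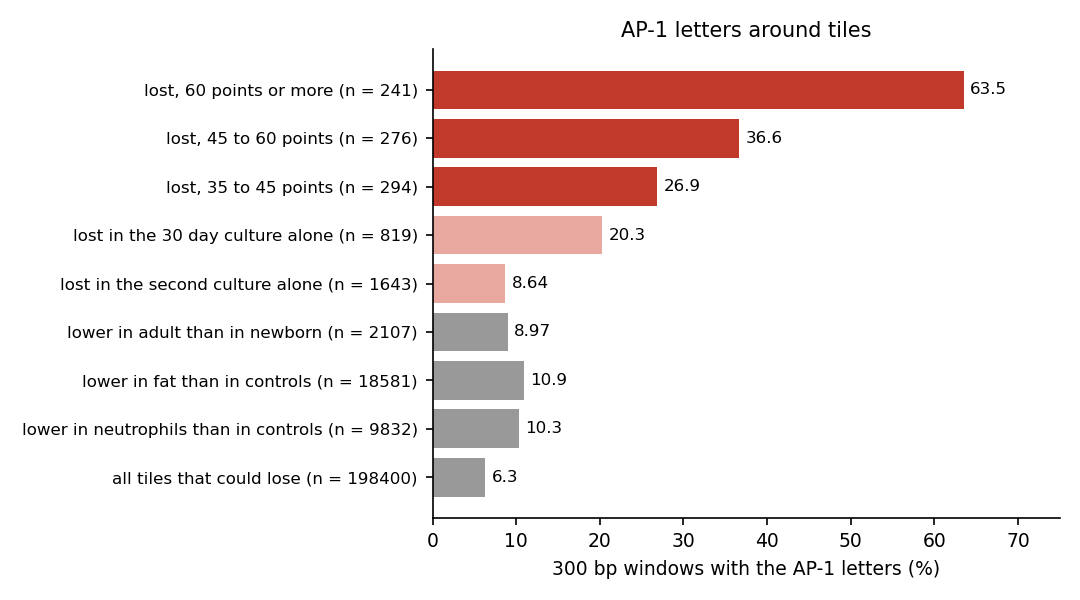
Share in percent (horizontal axis) of 300 bp windows around tiles that hold TGANTCA, for lost tiles by size of the loss, tiles lost in 1 culture alone, and tiles lower in other comparisons, with the number of tiles in brackets. The share is 63.5% for losses of 60 points or more and 6.30% for all tiles that could lose.

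In all, 6 lost tiles are given in the same form as the gained ones, with TGANTCA also in capitals. The first 3 have the largest difference among the 10 genes with the most lost tiles, 1 to a gene. The last 3 were chosen after their values were seen, as the tiles of those genes with the largest loss and the letters inside the tile. Trio, a guanine nucleotide exchange factor, has its tile at chr15:27927501-27927600. Kctd10, an adaptor of a ubiquitin ligase, has it at chr5:114828101-114828200. The tile at chr8:123088001-123088100 counts under Gm20388 but lies in Gse1. Those of Btd, Pawr and Ptges lie at chr14:32482501-32482600, chr10:107775301-107775400 and chr2:30775901-30776000. All lie in introns except that of Btd, which lies just beyond the 3' end of the gene.
Trio: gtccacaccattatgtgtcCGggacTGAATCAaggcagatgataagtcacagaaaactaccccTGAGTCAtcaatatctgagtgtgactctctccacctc
Kctd10: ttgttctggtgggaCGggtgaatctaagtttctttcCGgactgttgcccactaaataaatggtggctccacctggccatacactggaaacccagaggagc
Gse1: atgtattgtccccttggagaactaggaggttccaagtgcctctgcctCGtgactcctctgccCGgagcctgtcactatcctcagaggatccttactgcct
Btd: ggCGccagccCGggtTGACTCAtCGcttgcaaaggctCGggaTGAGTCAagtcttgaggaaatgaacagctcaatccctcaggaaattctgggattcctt
Pawr: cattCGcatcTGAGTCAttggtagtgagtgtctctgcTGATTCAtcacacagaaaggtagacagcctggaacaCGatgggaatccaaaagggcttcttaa
Ptges: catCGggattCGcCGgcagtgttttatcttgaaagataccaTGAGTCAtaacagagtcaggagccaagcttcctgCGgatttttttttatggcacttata

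At the Trio tile the cultures had 7.69% and 0%, the 3 week mice 100% and 92.0%, and newborn 91.4%. The tile holds 2 copies of the letters, and its window 3. At the Kctd10 tile the values were 0% and 22.2%, 100% and 100%, and 70.2%, and at the Gse1 tile 0% and 7.69%, 91.1% and 87.0%, and 87.7%. The Kctd10 tile has 1 copy in its window and the Gse1 tile has 0. The Btd tile had 6.45% and 36.5% in culture, 89.8% and 90.6% in the mice, and 0% in fat. At the Ptges tile both cultures were at 0% and the mice at 76.7% and 77.3%. The Pawr tile had 0% in the 30 day and 37.0% in the second culture, 95.1% and 86.9% in the mice, 87.2% in fat and 80.4% in neutrophils.

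By gene, Btd, Smad3, Nek6 and Plec had 4 lost tiles each at which the cultures did not overlap with the mice. These were out of 20, 53, 28 and 84 tiles measured. Trio, Pawr, Kctd10, Micall1 and Ptges had 3 each, out of 78, 29, 30, 31 and 19. Gm20388 also had 4, out of 2465. Of all tiles 0.256% were lost. Smad3 carries the signal of TGF-beta receptors to the nucleus. Its 4 tiles had a mean of 17.1% in culture, 80.3% at 3 weeks and 74.3% in newborn, with 24.5% in fat and 13.0% in neutrophils. One of them lay in a promoter. Plec encodes plectin, which links intermediate filaments to other structures, and its tiles had 39.5% in culture, 94.6% at 3 weeks and 0% in neutrophils. Here the cultures differed from each other: at the tile starting at 76034701 on chromosome 15 the 30 day culture had 3.33% and the second culture 77.1%. Micall1, an endosomal protein, had 9.19% and 73.4%. Nek6, a mitotic kinase, had 2.69% and 61.9%, and Btd, which encodes biotinidase, 18.1% and 87.5%. Pawr, a regulator of apoptosis, had 20.1% in culture and 91.2% at 3 weeks, and stood at 89.8% in fat and 89.1% in neutrophils. Ptges, prostaglandin E synthase, had 20.0% and 83.2%. Trio had 6.57% in culture and 88.2% at 3 weeks, and Kctd10 17.5% and 87.8%. The cultures also differed at the Kctd10 promoter tile starting at 114822601 on chromosome 5, with 2.78% in the 30 day and 67.6% in the second culture. In the controls injected at 1 day the tiles of Btd were at 53.2%, those of Smad3 at 41.8%, those of Nek6 at 31.1% and those of Micall1 and Gm20388 at 51.6% each. Those of Plec were at 84.4%, Kctd10 at 88.1%, Ptges at 84.1%, Trio at 81.8% and Pawr at 86.3%. The differences between these controls and the 3 week mice were not tested. In mice of 3 weeks Btd had 32.2 ± 7.70 FPKM (SD, n = 3) and Ptges 0.00325 ± 0.00563. No RNA of the cultures was analysed here.

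Among the genes with the most gained tiles, the wide model Gm20388 had 12 of 2465 tiles measured, Runx1 had 4 of 72 and Zfhx3 had 3 of 130. Runx1 is a factor of blood formation, with 0.00639 ± 0.00713 FPKM (SD, n = 3) at 3 weeks. Its 4 tiles had a mean of 51.6% in culture, 8.51% at 3 weeks, 7.97% in newborn, 21.6% in fat and 96.0% in neutrophils. Here too the cultures differed, with 71.4% in the 30 day and 19.4% in the second culture at the tile starting at 92606201 on chromosome 16. Zfhx3, a homeobox factor, had 52.4% in culture, 2.05% at 3 weeks and 93.4% in neutrophils. At its tile starting at 111284701 on chromosome 8 the 30 day culture had 64.8% and the second culture 19.25%. Cerk, Wdr8, Camk2g, Rab4a, Fgfr2, Myo1c and Ankrd13a had 2 tiles each, with differences of 73.1, 71.8, 65.3, 63.1, 59.8, 57.3 and 53.2 points between the means of culture and 3 weeks. Fgfr2, a receptor of fibroblast growth factors, is annotated over 3010 kb here and may cover other loci. Rab4a, a GTPase of endosomal recycling, shares its 2 tiles with Gm20388. Cerk had 3.68 FPKM in 1 library at 5 days and 0.0519 ± 0.0182 FPKM (SD, n = 3) at 15 weeks, and its tiles were at 0% in the controls and 78.9% in the DKO mice injected at 1 day. Over both directions, 224 protein-coding genes had a gained and 363 a lost tile without overlap, 25 and 79 of them with more than 1. For scale, 13185 genes of the expression table had a tile that could gain and 11989 a tile that could lose. Of all tiles, 12.7% lay without overlap above and 13.3% below the mice, and 0.11% were gained and 0.256% lost. Genes with more tiles measured have more room for members, and the counts were not adjusted for this.

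Genes that mark hepatocytes or control their expression were counted beside all tiles, of which 0.11% were gained and 0.256% lost. Of 18 markers of hepatocytes, 12 had tiles, 65 in all, of which 3 were gained and 0 lost, with a median difference of 6.62 points where all tiles had 0. The 3 gained are single tiles of Apoc3, Hpd and Apoa2. Nothing about the hepatocyte and liver factor lists is read from counts this small. The median difference is culture minus 3 week mice and does not use newborn, so it can include changes of the mouse with age. At Apoc3, an apolipoprotein of triglyceride rich particles, the cultures had 90.5% and 62.3%, the 3 week mice 20.9% and 0%, and newborn 29.4%. At Hpd, an enzyme of tyrosine breakdown, the values were 55.0% and 35.6%, 0% and 0%, and 5.56%. At Apoa2, an apolipoprotein of high density lipoprotein, the cultures differed, with 82.6% and 6.90%, and the mice had 0%. The 16 liver transcription factors had 287 tiles, of which 2 were gained and 0 lost, with a median difference of 0 points. At Hnf4a the cultures had 84.6% and 47.1%, the mice 16.5% and 6.06% and newborn 25.9%. At Nr1i2, which encodes the pregnane X receptor, they had 42.9% and 51.0%, the mice 8.96% and 7.84% and newborn 3.85%. The 14 promoter tiles of the hepatocyte markers had 27.7% and 33.2% in culture and 27% and 26.5% at 3 weeks, and the 84 promoter tiles of the liver factors had 5.17% and 4.93% in culture and 4.86% and 5.02% at 3 weeks.

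Lists for other cells of the liver and for growth control were counted next, where 0.11% of all tiles were gained and 0.256% lost, and nothing about a list is read from counts this small. Of 152 tiles in 16 genes of mesenchymal cells, such as the collagens and Acta2, 0 were gained or lost, and their 54 promoter tiles had 11.9% and 11.3% in culture and 11.7% and 12.9% at 3 weeks. The 141 tiles of 10 endothelial genes also had 0 members. Of 57 tiles in 7 blood genes, 1 in the promoter of Vav1 was lost, with 16.2% and 12.4% in culture, 36.3% and 62.5% at 3 weeks and 0% in neutrophils. The cholangiocyte list had 3 lost tiles of 109, and 0 gained. Cldn4, a tight junction protein of bile duct cells, had 2 of them in its promoter: at the first the cultures had 8.33% and 8.04%, the mice 74.0% and 85.7%, newborn 64.4%, fat 11.4% and neutrophils 72.7%. Growth control genes had 1 gained tile, of Cdkn2b, at 60% and 53.3% in culture and 5.00% and 5.04% at 3 weeks, and 2 lost tiles, of Cdh1 and Cdh13. Cdkn2b encodes a cell cycle inhibitor, and Cdh1 encodes E-cadherin. The Cdh1 tile had 10.0% and 10.9% in culture and 67.9% and 50.0% at 3 weeks.

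Further lists are read against the same shares of all tiles. The 39 Hox genes with 551 tiles had 0 members, and so had the 20 germline genes with 124 tiles, whose 53 promoter tiles had 76.9% and 80% in culture and 81.8% and 78.5% at 3 weeks. Among 2187 tiles of 79 developmental factors 4 were gained, at Irx5 and Lhx9, and 0 lost. At the second Irx5 tile the cultures had 60% and 46.9%, the mice 0%, and newborn 10.8%, and at the first Lhx9 tile the cultures differed, with 78.95% and 10.9%. Of 178 tiles in genes that write, copy or remove methylation, 1 of Uhrf1 was gained, with 33.3% and 76.9% in culture and 0% in both mice, and 0 tiles of Tet2 or Tet3 were members. Insr, the insulin receptor gene, had none either. Among imprinted genes 1 tile of 293 was gained, 0 were lost. It lay in the Igf2r promoter, with 90% and 73.0% in culture and 6.67% and 12.6% at 3 weeks, while the 5 injected controls with a value ranged from 13.0% to 92.4% there and fat was at 0%.

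The DKO mice gave a readout of the gained tiles that the rule did not use. With Tet2 and Tet3 deleted at 1 day, the gained tiles had 49.4% and 50.8%, compared with 15.7%, 15.4% and 14.4% in the 3 controls. Deleted at 3 weeks, they had 29.2% and 30.7%, compared with 16.7%, 15.2% and 15.4%. At 176 of 349 gained tiles (50.4%) the mean of the DKO mice injected at 1 day was at least 35 points above their controls, where 1.95% of all tiles, 2.35% of the tiles that could gain and 5.82% of those outside CpG rich sequence were. These 176 tiles had 70.5% and 66.2% in culture and 23.8% in newborn, and H3K4me1 covered 83.5% and 5hmC 24.4% of them. The other 173 tiles had 63.8% and 65.2% in culture and 20.5% in newborn, with H3K4me1 at 49.7% and 5hmC at 8.67%. Hnf4a, with 71.1% and 41.4%, and Nr1i2, with 39.0% and 40.6%, were high in the DKO mice. Hpd, with 4.82% and 0%, and Runx1, with a mean of 11.1%, were low there. Lost tiles had 77.9% and 78.1% in the DKO mice injected at 1 day and 70.1% ± 0.376 (SD, n = 3) in their controls. Of 807 lost tiles with a value in both groups, 79 (9.79%) were 35 points or more higher in the DKO mice, where 1.81% of the tiles that could lose were, and 11 (1.36%) were that much lower, where 0.132% were. With the rule applied to 1 culture, the share of gained tiles at least 35 points higher in the DKO mice injected at 1 day was 31.6% for the second and 44.0% for the 30 day culture.

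Fat and neutrophils were compared with the injected controls, which share no sample with the contrast of the rule. Fat had 60.8% and neutrophils 78.3% at gained tiles. Fat was at least 35 points above the controls at 207 of 332 gained tiles (62.3%), where 2.61% of all tiles and 11.8% of those outside CpG rich sequence that could gain were. Neutrophils were so at 255 of 334 (76.3%), with 4.31% of all tiles and 19.4% of those outside CpG rich sequence that could gain. Of 323 gained tiles with both values, 196 were at or above 50% in both tissues, and 31 were under 50% in both. At lost tiles fat had 45.8% and neutrophils 61.5%. Fat was at least 35 points below the controls at 317 of 782 lost tiles (40.5%; 6.29% of all tiles, 9.59% of those that could lose), and neutrophils at 187 of 779 (24.0%; 3.44% and 5.08%). Of 754 lost tiles with both values, 299 were at or above 50% in both tissues. Those 299 had 32.5% in culture and 84.2% at 3 weeks, and 35.8% of them held the AP-1 letters.

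Tiles that set hepatocytes apart from fat and neutrophils were close to the hepatocyte level in culture, with a shift toward the other tissues. Prenatal hepatocyte tiles numbered 452. They were under 5% in newborn WGBS, and fat and neutrophils each exceeded adult WGBS by 50 points or more. The cultures had 13.0% and 12.1% there, the 3 week mice 2.21% and 2.82%, newborn 2.57%, fat 77.6% and neutrophils 87.0%. The difference from 3 weeks was 10.0 points, with an exact permutation p of 0.33, the smallest that 2 against 2 samples allow. It was spread over the tiles, with a median of 6.90 and quartiles of 1.89 and 15.2 points, and 21 of the 452 were past 35 points, of which 19 were gained tiles. Because these tiles were chosen under 5% in newborn, there was little room for a change except upward. Sorted hepatocytes of the DKO mice were also higher there. Injected at 1 day they had 9.34%, with 2.36% in their controls, and injected at 3 weeks 5.56%, with 2.60%. For the opposite contrast, 377 tiles at or above 80% in both WGBS samples and under 20% in fat and neutrophils had 79.1% and 77.4% in culture and 87.2% and 87.5% at 3 weeks. Tiles under 20% in fat and at or above 80% in neutrophils, 849 in all, had 85.3% and 87.2% in culture and 89.7% and 89.0% at 3 weeks, and 375 tiles with the reverse had 90.6% and 89.2% against 92.7% and 91.9%. Of these 3 sets, 26, 15 and 2 tiles were among the losses, where 0.409% of all tiles that could lose were. The cells plated were not sorted, and the part that other cell types have in the gains and losses was not tested.

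Both cultures stayed near the newborn level where hepatocytes change after birth. Postnatal tiles numbered 909. There newborn WGBS exceeded adult WGBS by 35 points or more, and fat and neutrophils each exceeded it by 50 points or more. They had 78.7% and 74.6% in culture, 53.5% and 55.1% at 3 weeks, 72.8% in newborn and 15.0% in adult WGBS. The difference of 22.3 points from 3 weeks had an exact permutation p of 0.33, again the smallest possible. At the 384 of these tiles where the 3 week mean was within 35 points of adult WGBS (26.2% and 26.2% in the mice, the values that set them apart) the cultures had 69.2% and 62.0%, newborn 64.7% and adult WGBS 11.7%. At the other 525 tiles the cultures had 85.7% and 83.9% by RRBS, and newborn had 78.7% by WGBS. The DKO mice injected at 1 day had 80.1% and 84.0% there by RRBS, while 1 WGBS sample of that group had 77.7%. How much of the distance of the cultures from newborn comes from the method was not tested. Tiles that gain methylation after birth were near the newborn level too: 217 tiles, where adult WGBS exceeded newborn WGBS by 35 points and each tissue by 50 points or more, had 21.8% and 29.1% in culture, 27.3% in newborn, 52.7% and 53.1% at 3 weeks and 73.8% in adult WGBS. Of the 909 postnatal tiles 17 were gained and 6 lost, and of the 217 tiles 1 was lost, where 0.276% of the tiles that could gain were gained and 0.409% of those that could lose were lost. The rule also asks for a distance from newborn, and nothing is read from these counts.

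**Figure D5:**
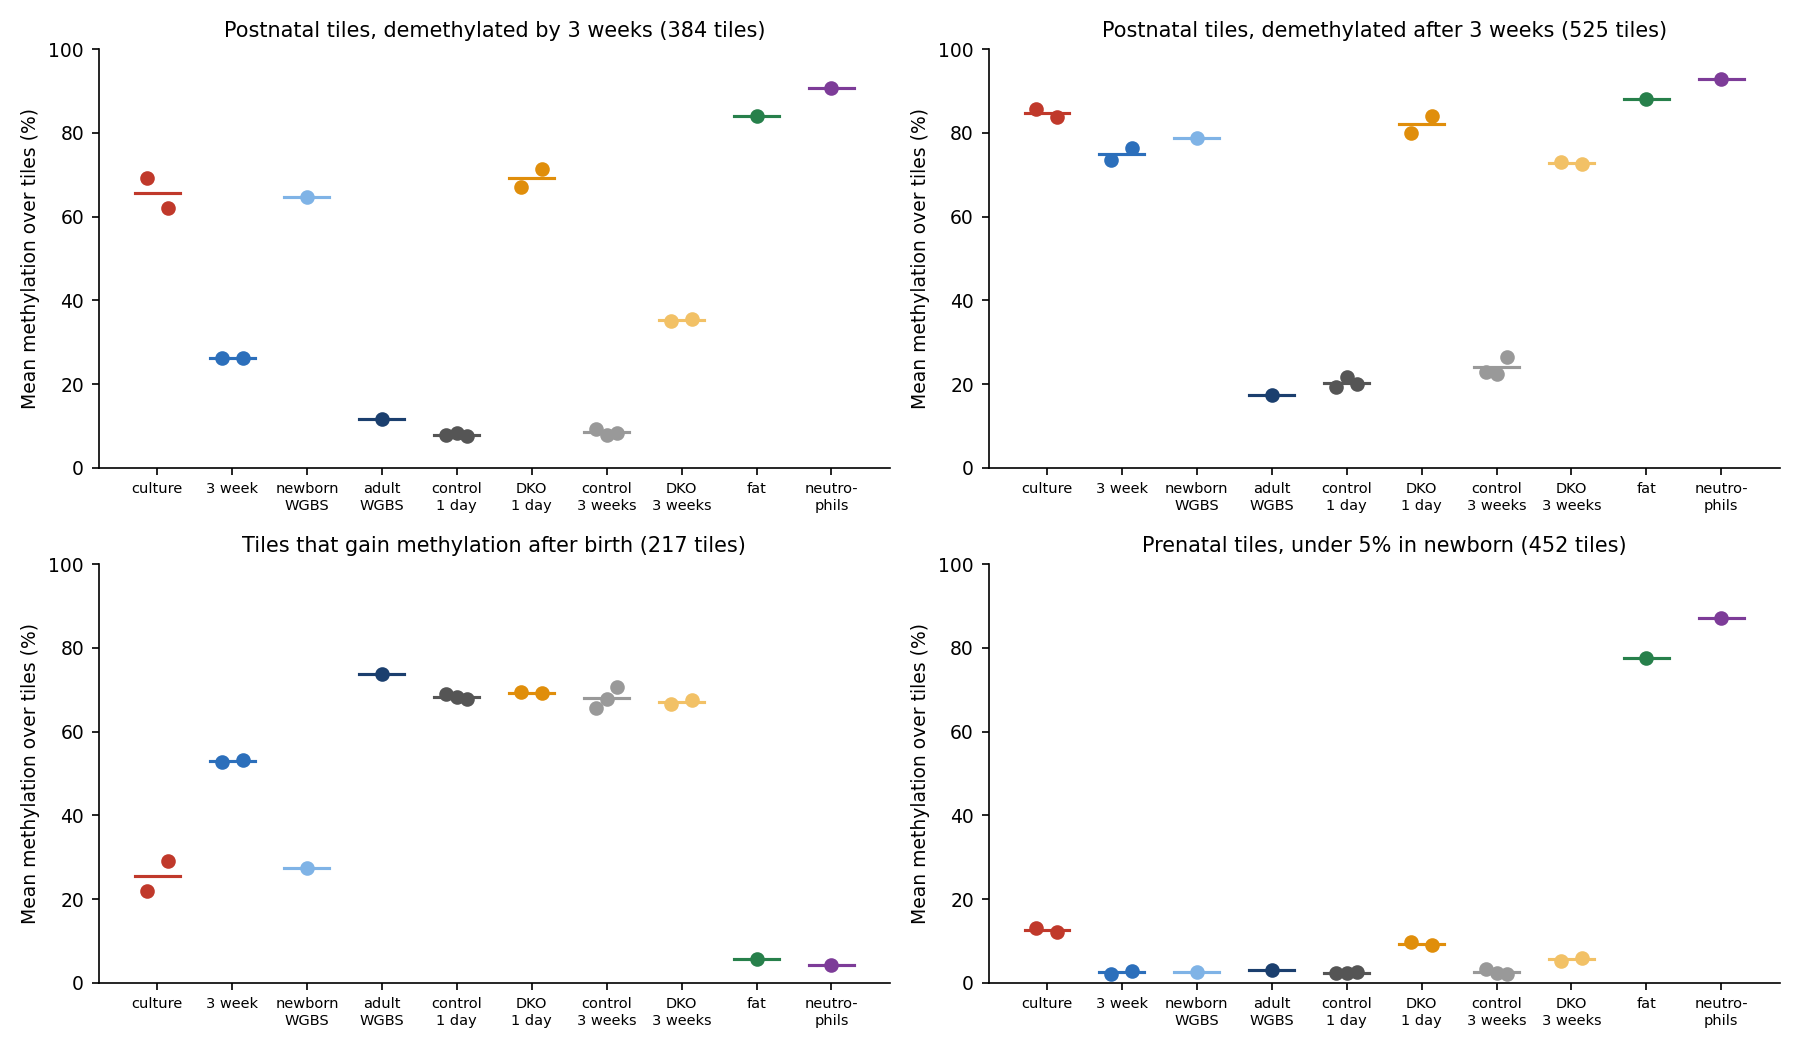
Mean methylation in percent (vertical axes, 0 to 100) over 4 sets of tiles chosen on WGBS, fat and neutrophils (the upper sets also on the 3 week mice), with 1 point per sample and a line at the group mean. In culture the tiles demethylated by 3 weeks lie at 69.2% and 62.0%, close to newborn with 64.7%, the tiles that gain methylation after birth lie at 21.8% and 29.1%, close to newborn with 27.3%, and prenatal tiles lie at 13.0% and 12.1%.

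Genes with any gained tile had a higher median level of RNA in the liver than genes with a tile that could gain, a difference that was not tested. Of 219 such genes in the expression table, the median was 4.32 FPKM at 5 days (1 library), 3.60 at 3 weeks (3 libraries) and 4.35 at 15 weeks (3 libraries), compared with 2.53, 1.95 and 2.25 for the 13185 genes with a tile that could gain. The 366 genes with a lost tile had 1.53, 1.13 and 1.33 FPKM, compared with 1.43, 0.999 and 1.06 for the 11989 genes with a tile that could lose. At 15 weeks 71.7% of genes with a gained tile reached 1 FPKM, compared with 59.2% of genes with a tile that could gain. For genes with a lost tile the share was 52.5%, compared with 50.4% of genes with a tile that could lose. The median change from 5 days to 15 weeks was -0.0147 for genes with a gained and -0.0149 for genes with a lost tile, on the scale of log2(FPKM + 1). It was -0.00888 for genes with a tile that could gain and 0 for genes with a tile that could lose.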

How the data were processed

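RRBS reads were trimmed with Trim Galore 0.3.3 and aligned to mm9 with BSMAP 2.74, per the labels. The authors deposited the methylated fraction per 100 bp tile (at least 10 CpGs covered) and WGBS fractions per 200 bp (at least 15 CpGs), without coverage, so the depth behind each value is unknown. FPKM values (TopHat2, Cufflinks) and HOMER peaks with their normalized tag signal were used as deposited; the signal only showed that a peak was listed. Of the RRBS and FPKM columns, 62 were not used. Tiles with a value numbered 340235 and 517352 in the cultures and 601562 and 549162 in the 3 week mice. RRBS holds autosomes only. Fractions were multiplied to percent. Tiles were matched to the WGBS tile at their position and to GENCODE vM1. limma 3.58.1 (R 4.3.3, trend, Benjamini-Hochberg) was run on fractions. In simulated data, recovery of planted changes was required only with an equal spread at every tile. That check does not show the power of the fit at the real tiles. Group means were compared by exact permutation. Named genes were the 10 per direction with the most member tiles without overlap (promoter, body or 1 kb beyond) and up to 4 per list for 12 lists, with Tet2, Tet3 and Insr. Python 3.11.15, pandas 2.3.3 and scipy 1.17.1 were used. Spi1 and Adgre1 were not matched by symbol. The values of 1 listed gene and 1 motif are not reported here. Nothing shows that the cultures are separate litters, so p-values may measure technical spread. The members, lists and motifs were chosen with earlier results of these data known.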

Additional observations from a re-analysis of the deposited data

Results flagged for a closer look

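At the postnatal tiles the effect of deleting Tet2 and Tet3 differed between injection times. The DKO mice were 61.6 points above their controls when injected at 1 day and 39.5 points above them when injected at 3 weeks, a difference of 22.06 points (exact permutation of the injection time within DKO and within controls, 120 arrangements, two-sided p = 0.0167). This is the smallest p that these arrangements allow. The cultures, at 78.7% and 74.6%, lay beside the DKO mice injected at 1 day with 74.6% and 78.7%. At the gained tiles the same difference was 20.7 points and did not pass (exact permutation p = 0.1), with effects of 34.9 and 14.2 points. Neither did the lost tiles, with 3.25 points (exact permutation p = 0.15), or the prenatal tiles, with 4.02 points (p = 0.117). The p-values were not adjusted for the number of sets tested. By Dixon's test no injected control passed as an outlier from the other 5 at gained, lost, postnatal or prenatal tiles. The gap over the range was 0.436, 0.619, 0.378 and 0.595, with a critical value of 0.625, so the lost and prenatal tiles came close to it.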

How the results depend on the processing

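The count of gained tiles was 1198 with a limit of 0.25 and 46 with 0.50, 111 with each culture past each reference, and 2149 without the newborn reference, and the count of lost tiles was 2144, 280, 338 and 1854. With adult WGBS and the injected controls as further references 279 gained and 498 lost tiles remained by construction. Leaving out 1 sample gave 368 to 858 gained and 823 to 2280 lost tiles, with 858 and 2280 without the 30 day and 734 and 1421 without the second culture. limma gave 0 tiles in both directions on the logit, 645 higher and 264 lower with the injected controls, 0 and 2 without a trend, 711 and 452 among tiles with a range of at least 0.1, and 0 to 185 and 0 to 27 with 1 sample left out, where a lone sample is taken to vary like the other group. The difference in the mean of all tiles changed sign: -0.494 points by the median, -0.215 at tiles over 0.8 in newborn, and from -0.314 to 0.384 with 1 sample left out. That of postnatal tiles stayed between 16.9 and 24.6 points and that of prenatal tiles between 7.93 and 10.9 under the settings tried. The promoter share became 15.5% of gained and 11.5% of lost tiles with promoters to 1 kb after the start, 5.92% of lost tiles with protein-coding starts, and 4.35% of gained tiles at a limit of 0.50. Chosen after seeing the data, the share of lost tiles with AP-1 letters was 26.6% at a limit of 0.25 and 63.2% at 0.50, and that of gained tiles high in the 1 day DKO 36.7% and 63.0%. Leaving out 1 sample gave 17.5% to 40.4% and 31.6% to 45.4%. Apart from construction (fewer samples, references or tiles) the cause of these changes was not tested. No paired analysis was possible because the columns carry no replicate numbers of the labels. With 2 cultures, 1 library per WGBS sample and tissue, and no coverage, single tiles with 1 or 2 CpG sites are the least certain values.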

Other observations

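Tiles of imprinted genes at 30 to 70% in the 3 week mean and in newborn WGBS, where 1 parental copy is usually methylated, were at a similar level in culture. The 72 such tiles had 47.5% and 47.9% in culture, 46.7% and 47.5% in the 3 week mice and 47.1% in newborn. Of them 0 were gained and 0 lost, where 0.11% and 0.256% of all tiles were, and nothing is read from counts among so few tiles. The gained tile of the Igf2r promoter, with a mean of 9.63% at 3 weeks, lay outside the limits of 30 to 70%. Single genes varied more: the 30 Gnas tiles had 45.1% and 42.6% in culture and 44.0% and 46.3% at 3 weeks, while the 2 Mest tiles had 39.7% and 15.0% and 51.0% and 63.1%.

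A group of 31 gained tiles was under 50% in fat and in neutrophils. They had 60.1% in culture and 11.8% at 3 weeks, and 51.6% of them lay in H3K4me1 peaks, compared with 68.4% of the 196 gained tiles at or above 50% in both tissues.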
